A study of Mus musculus with 10 samples.

Results

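The LIM homeobox genes examined here were Lhx1, Lhx2, Lhx3, Lhx4, Lhx5, Lhx6, Lhx8, Lhx9, Isl1 and Isl2. These 10 genes were taken by name from the 21938 protein-coding genes on mouse chromosomes 1 to 19, X and Y, and all 10 could be measured. The question was where the repressive histone mark H3K27me3 lay over their promoters and bodies in the long-term stem cells of blood (LT-HSCs), and whether it differed when IκBα was lost. IκBα, encoded by Nfkbia, is the cytoplasmic inhibitor of NF-κB, and the study also placed it on chromatin. CUT&Tag, in which an antibody tethers a transposase to the chromatin that carries the mark, gave 3 WT and 3 IκBα KO libraries. All 6 were made from untreated fetal liver at E14.5, with the LT-HSC gate set on LSK cells that were CD48- and CD150+. The KO embryos came from a targeted Nfkbia knockout line, so the gene was missing in the whole embryo and not only in the blood. The study names more embryos than libraries for each genotype and fewer independent experiments than replicates, but the labels tie no library to an embryo or an experiment. Libraries may therefore hold cells of several embryos, and the spread between them may be partly technical. The knockout itself cannot be checked from a repressive mark. In both genotypes replicates 1 and 2 were sequenced with 75 bp reads and replicate 3 with 50 bp reads.

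LIM-homeodomain proteins are transcription factors that carry a pair of LIM domains, which bind cofactors such as LDB1, and a homeodomain, which binds DNA. They give identity to neurons, glands and limb, heart and gonad progenitors, and most work as close paralogs that share a target tissue. H3K27me3 is laid down by Polycomb repressive complex 2 (PRC2) and typically forms broad domains over developmental regulators in cells that do not use them. A peak in these data is a stretch of the genome among the 0.5% of blocks with the highest signal in its own library. The absence of a peak therefore means that a stretch did not reach that share in that library, not that the mark was missing. A peak also says nothing by itself about the expression of the gene.

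The libraries differed in peak number and coverage, and this touches every count that follows. They held between 4160 and 6013 peaks in the 4 libraries of 75 bp reads, 2325 in KO replicate 3 and 1047 in WT replicate 3. The median peak was 3475 to 3624 bp wide in the 75 bp libraries, 2835 bp in KO replicate 3 and 1727 bp in WT replicate 3. Its highest coverage was 6 fragments in WT replicate 3 and 9 to 10 in the others. WT replicate 3 thus stood apart, and the comparisons between genotypes are also given without it. The fits limited to 75 bp reads leave out KO replicate 3 as well. None of 10 genes used by hematopoietic stem cells, among them Kit, Runx1, Tal1 and Mecom, had a promoter peak in any library. The hepatoblast genes Afp, Alb, Apoa1 and Ttr had none either. As 84.2% of all protein-coding genes also had none, these counts set neither list apart. A promoter peak was found for 1 of 4 erythroid genes, Hba-a1, in WT replicate 2 and KO replicate 1, and for 1 of 4 endothelial genes, Kdr, in WT replicate 2.

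All 10 LIM homeobox genes carried H3K27me3 at a promoter in WT replicates 1 and 2 and in each of the 3 KO libraries, and 5 of 10 did so in WT replicate 3. The promoter window reached from 5 kb before each annotated transcription start site (TSS) to 100 bp past it. The share of all protein-coding genes with a promoter peak was 10.6% and 12.9% in WT replicates 1 and 2, 3.46% in WT replicate 3, 12.9% and 12.2% in KO replicates 1 and 2, and 8.06% in KO replicate 3. Of all protein-coding genes, 2.65% had a promoter peak in all 6 libraries and 84.2% in none, against 5 and 0 of the 10 LIM homeobox genes. All 10 were marked in 5 or 6 libraries, against 6.81% of protein-coding genes. Counting peaks in the gene body as well, 6 of 10 were marked in all 6 libraries, against 3.47%.

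The 9 genes with a promoter entry differed widely in CpG content while all were marked. The promoters of Isl1, Lhx2, Lhx9 and Lhx8 are printed as examples, though not each of them lay under a peak in every library. They are RefSeq promoters of GRCm38.p6, read 5′ to 3′ on the strand of the gene from 250 bases before to 50 bases after a start, with each CpG in capitals.
Isl1 (chr13:116309639-116309938, minus strand): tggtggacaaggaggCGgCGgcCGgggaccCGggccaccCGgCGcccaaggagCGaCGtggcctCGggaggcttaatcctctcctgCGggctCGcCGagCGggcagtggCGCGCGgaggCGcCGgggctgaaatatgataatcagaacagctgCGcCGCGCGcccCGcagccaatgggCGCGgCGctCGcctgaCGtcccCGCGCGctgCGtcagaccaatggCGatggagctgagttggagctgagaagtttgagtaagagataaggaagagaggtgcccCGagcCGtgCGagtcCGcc
Lhx2 (chr2:38351058-38351357, plus strand): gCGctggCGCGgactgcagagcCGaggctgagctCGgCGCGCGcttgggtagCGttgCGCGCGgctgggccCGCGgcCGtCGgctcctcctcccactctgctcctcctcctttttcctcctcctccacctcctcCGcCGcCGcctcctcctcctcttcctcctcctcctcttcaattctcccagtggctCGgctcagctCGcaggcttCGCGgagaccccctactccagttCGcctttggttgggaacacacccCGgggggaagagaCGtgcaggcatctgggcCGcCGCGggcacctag
Lhx9 (chr1:138842395-138842694, minus strand): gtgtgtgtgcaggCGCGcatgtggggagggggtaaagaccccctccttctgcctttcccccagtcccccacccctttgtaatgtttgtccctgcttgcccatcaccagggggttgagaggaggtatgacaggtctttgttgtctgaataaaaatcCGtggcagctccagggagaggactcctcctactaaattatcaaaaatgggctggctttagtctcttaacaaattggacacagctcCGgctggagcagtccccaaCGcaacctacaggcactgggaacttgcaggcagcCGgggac
Lhx8 (chr3:154330511-154330810, minus strand): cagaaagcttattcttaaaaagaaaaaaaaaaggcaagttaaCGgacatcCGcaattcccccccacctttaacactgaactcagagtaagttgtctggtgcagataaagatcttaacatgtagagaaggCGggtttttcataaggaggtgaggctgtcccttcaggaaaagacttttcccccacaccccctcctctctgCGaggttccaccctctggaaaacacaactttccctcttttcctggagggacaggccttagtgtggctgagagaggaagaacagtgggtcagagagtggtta
The Isl1 promoter held 37 CpG dinucleotides, more than 94.4% of the 32841 mouse promoters in the same set, whose median was 7. It lay wholly under a peak in no WT library and in KO replicates 1 and 3. The Lhx2 promoter, 549 bp downstream of the principal start, held 29 CpG and lay wholly under a peak in each of the 6 libraries. The Lhx9 and Lhx8 promoters held only 6 and 4 CpG, below the median, and each lay wholly under a peak in every library but WT replicate 3. The start of the Lhx8 entry lay 501 bp upstream of the principal one. Promoter entries were matched for 9 of the members, Lhx5 being the exception, and gave 13 sequences with 4 to 37 CpG and a median of 19. The homeodomain motif TAATTA and the retinoic acid receptor half-site AGGTCA, searched on both strands, occurred in 0 of the 13 sequences, against 5.29% and 16.3% of all mouse promoters. With so few sequences, several of them from the same gene, this does not set the members apart and was not tested.

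**Figure D1:**
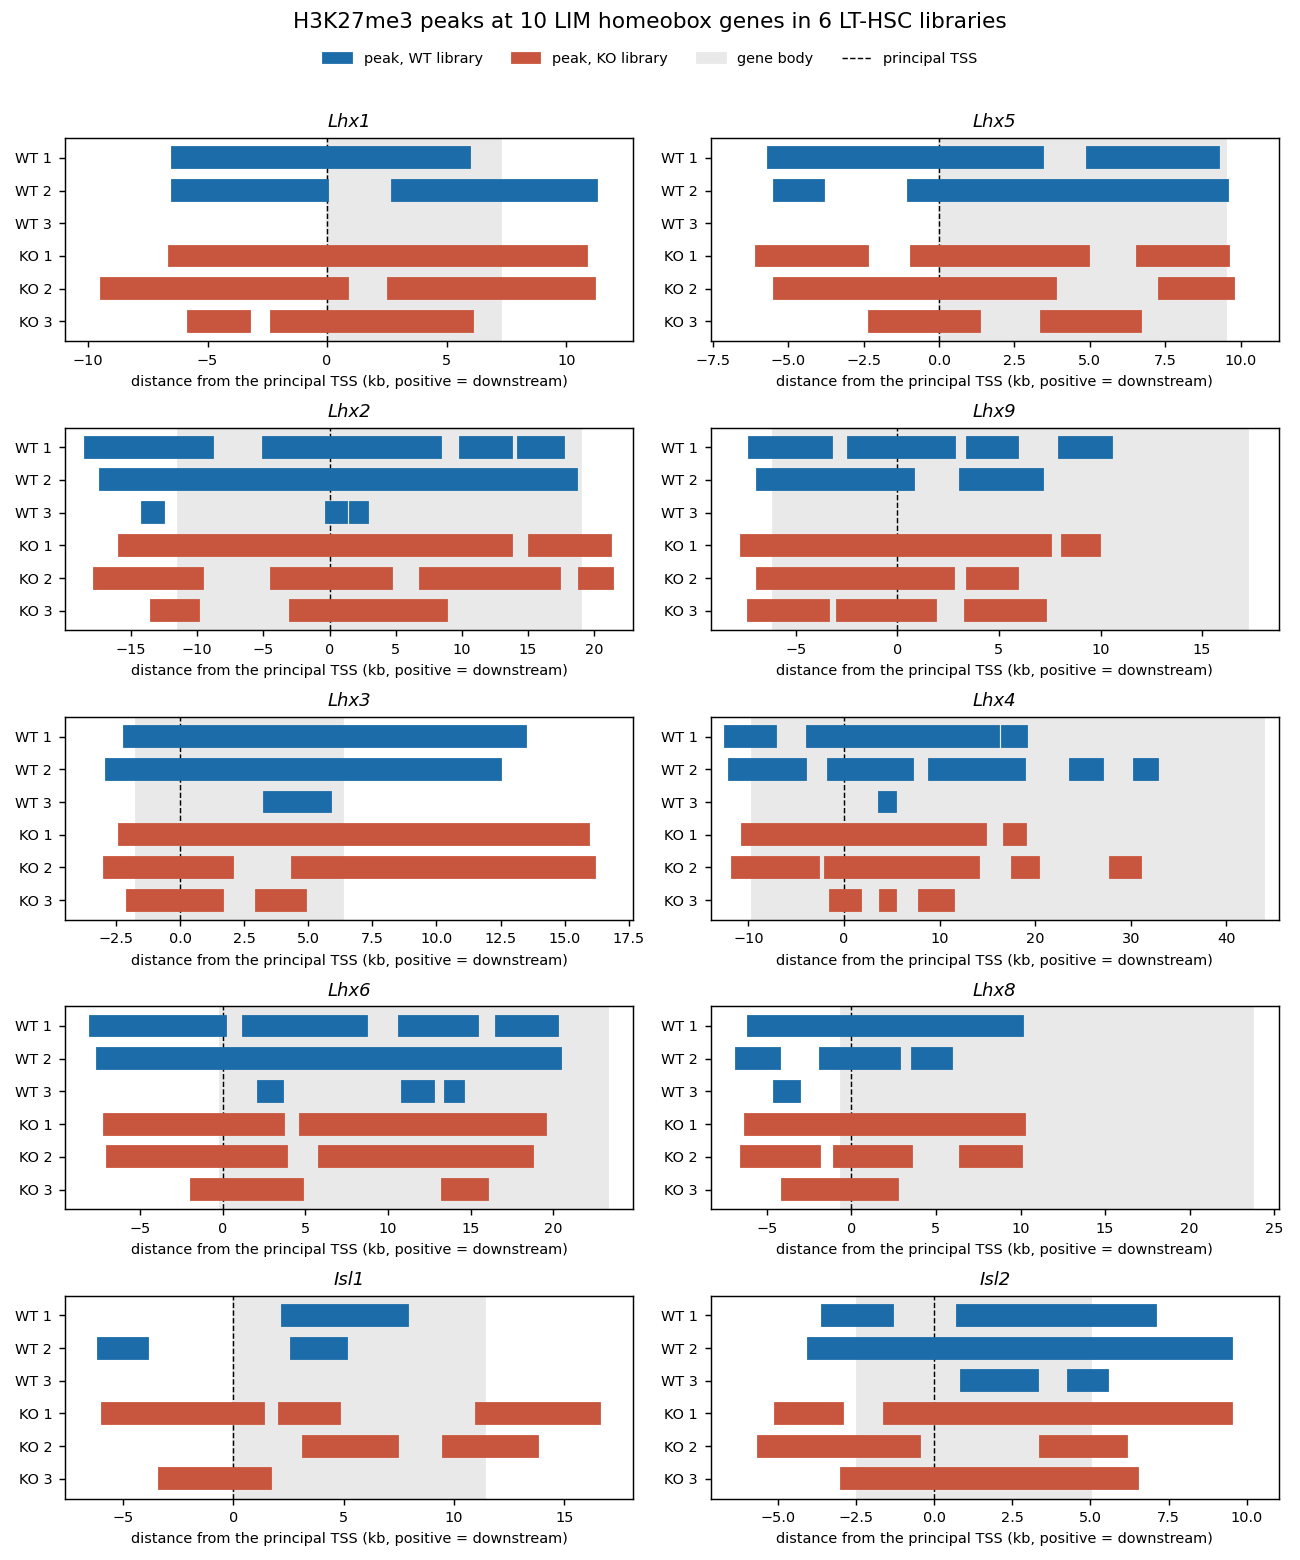
H3K27me3 peaks at the 10 LIM homeobox genes, 1 row per library (WT in blue, KO in red), against the distance in kb from the principal TSS (dashed line), with the gene body in grey. Single peaks pass 10 kb at several genes in the 75 bp libraries, are short or missing in WT replicate 3, and at Isl1 reach the principal TSS only in KO replicates 1 and 3.

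The mark spread over the loci rather than sitting at the starts. Over the promoters and bodies of all 10 genes together, peaks covered 61.2%, 63.3% and 7.36% of the bases in WT replicates 1 to 3, and 67.8%, 58.6% and 35.9% in KO replicates 1 to 3. The 75 bp libraries of the 2 genotypes lay close together and the 50 bp library was the lowest of each. At least 50% of the locus was covered for 8, 7 and 0 members in WT replicates 1 to 3 and for 9, 7 and 2 in KO replicates 1 to 3. The share of all protein-coding genes with as much cover was 1.7%, 2.37% and 0.0182% for WT replicates 1 to 3 and 2.2%, 2.11% and 0.707% for KO replicates 1 to 3. Joining overlapping peaks across libraries gave 1 merged region per gene in 5 or 6 libraries for 9 of the 10 genes, from 15192 bp at Isl2 to 42577 bp at Lhx2, with a median of 19152 bp. The 717 merged regions of the genome called in all 6 libraries had a median of 9880 bp.

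**Figure D2:**
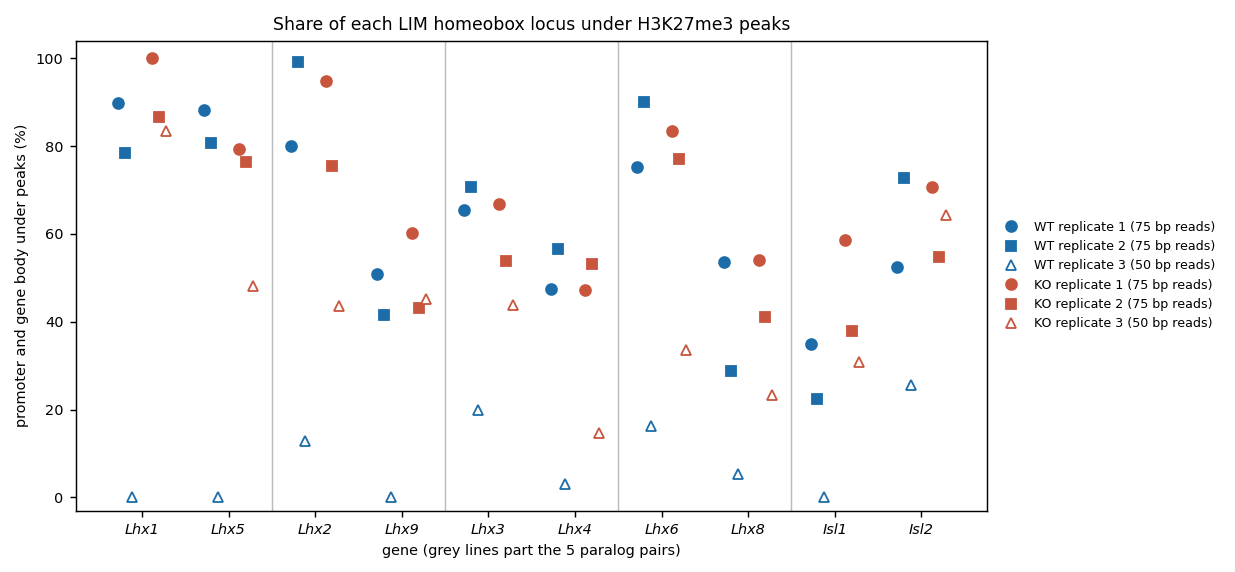
Share of the promoter and body of each gene under H3K27me3 peaks (y axis, %), 1 point per library, WT in blue and KO in red, with open triangles for the 50 bp libraries. The WT and KO points overlap at every gene, and WT replicate 3 is the lowest point at each.

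Lhx1 and Lhx5 are close paralogs, Lhx1 being required for the head organizer and the kidney and Lhx5 for forebrain and hippocampal development. Both were covered over most of their length in the 75 bp libraries. At Lhx1 (ENSMUSG00000018698.15, chr11:84518284-84525535, minus strand) peaks covered 89.7%, 78.4% and 0% of the locus in WT replicates 1 to 3 and all of it, 86.6% and 83.5% in KO replicates 1 to 3. WT replicate 3 was the only library without a peak, and KO replicate 1, in which a single peak of 17501 bp took in the whole locus, was the highest. WT replicate 1 lay above KO replicates 2 and 3, so the genotypes overlapped. At Lhx5 (ENSMUSG00000029595.9, chr5:120431699-120441223, plus strand) the share was 88.2%, 80.8% and 0% for WT and 79.3%, 76.5% and 48.0% for KO. Here the 75 bp KO libraries lay below both 75 bp WT libraries, while WT replicate 3 again had no peak.

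The merged region at Lhx1 spanned 20834 bp and held the divergent noncoding transcript Lhx1os over 9418 bp, as well as the promoter of the neighbouring gene Aatf, so a peak there could not be given to Lhx1 alone. That at Lhx5 overlapped the antisense transcript Gm27199 by 6134 bp. Both regions lacked a call in WT replicate 3 and so were not among the 717 regions called in all 6 libraries. Their values are given for the 75 bp libraries, over the 2557 regions called in all 4. The signal of the peaks in a region, divided by the median region of its library, was 3.61 and 3.13 at Lhx1 for WT and 3.30 and 3.92 for KO. At Lhx5 it was 2.99 and 2.74 for WT and 2.18 and 2.58 for KO, so that the KO values lay below the WT values without overlap. Such separation of 2 against 2 libraries was seen at 31.7% of all 2557 regions. The log2 difference KO minus WT was 0.10 ± 0.32 (SE) at Lhx1 and -0.27 ± 0.32 at Lhx5, both with an adjusted p of 0.999 in limma. Without WT replicate 3, which keeps KO replicate 3 in the fit, it was 0.095 ± 0.31 at Lhx1 and -0.28 ± 0.31 at Lhx5.

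Lhx2 and Lhx9 form the next pair. Lhx2 is needed for the eye, the forebrain and hair follicle stem cells, and has long been used to expand hematopoietic progenitors by forced expression, whereas Lhx9 is needed to form the gonad. Lhx2 (ENSMUSG00000000247.11, chr2:38339281-38369733, plus strand) was the only member whose principal TSS lay under a peak in all 6 libraries. Peaks covered 80.0%, 99.2% and 12.9% of its locus in WT replicates 1 to 3 and 94.8%, 75.5% and 43.5% in KO replicates 1 to 3. The 50 bp libraries were the 2 lowest, and the genotypes overlapped. In WT replicate 2 a single peak of 36053 bp ran from -17345 to 18707 bp around the principal TSS and ranked 3 among the 6013 peaks of that library by total signal, a measure that grows with width. In WT replicate 3 the same locus held 3 short peaks, of 1700, 1570 and 1321 bp, at its upstream end and around its start.

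The signal of the merged Lhx2 region, divided by the median of the 717 regions in each library, was 5.11, 5.17 and 3.09 for WT and 5.30, 4.22 and 4.02 for KO. WT replicate 3 was the lowest and KO replicate 1 the highest, and the groups overlapped. The log2 difference was 0.05 ± 0.34, with a 95% interval of -0.70 to 0.80 and an adjusted p of 0.992 (limma). In the 75 bp libraries alone it was -0.11 ± 0.33, and without WT replicate 3 it was -0.19 ± 0.31. At Lhx9 (ENSMUSG00000019230.14, chr1:138825186-138848577, minus strand) peaks covered 50.9%, 41.6% and 0% of the locus in WT and 60.3%, 43.0% and 45.3% for KO. The cover was around the start and the first part of the body, and 37.2% of the locus lay under no peak in any library. The signal at the main Lhx9 region was 3.18 and 2.15 times the median region in the 75 bp libraries of WT and 3.18 and 2.62 times in the KO ones. The difference there was 0.14 ± 0.35, with an adjusted p of 0.999.

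Lhx3 and Lhx4 act together in the pituitary and in motor neurons. Peaks covered 65.5%, 70.7% and 19.9% of Lhx3 (ENSMUSG00000026934.15, chr2:26200212-26208289, minus strand) in WT and 66.8%, 53.8% and 43.7% for KO. The only peak of WT replicate 3 lay in the body, 3279 to 5875 bp downstream of the principal TSS, and had a highest coverage of 3 fragments. It counted for a promoter because Lhx3 has 4 annotated starts. In the 75 bp libraries the peaks ran past the 3′ end of the gene, and the merged region of 19152 bp also overlapped the antisense transcript Gm27196 and the last 923 bp of Qsox2. The centred signal was 3.04, 2.71 and 1.03 for WT and 2.78, 2.24 and 1.42 for KO. Both 50 bp libraries were low and the groups overlapped, with a log2 difference of 0.02 ± 0.46 and an adjusted p of 0.992. In the 75 bp libraries it was -0.19 ± 0.33, and without WT replicate 3 it was -0.46 ± 0.36.

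Lhx4 (ENSMUSG00000026468.14, chr1:155698031-155751684, minus strand) is the longest member, and peaks covered 47.6%, 56.5% and 3.05% of its locus in WT and 47.3%, 53.2% and 14.7% for KO. Most of the cover fell in the 5′ part, with further peaks from 23620 to 27127 and from 30396 to 32891 bp downstream of the principal TSS in WT replicate 2 and from 27854 to 31101 bp in KO replicate 2, and 29.5% of the locus lay under no peak in any library. In WT replicate 3 the only peak, 1791 bp wide, lay in the body from 3651 to 5441 bp downstream of the principal TSS and did not touch a promoter. KO replicate 3 also had a peak there, from 3753 to 5488 bp, together with a peak over the start. The centred signal was 4.20, 3.63 and 1.27 for WT and 3.86, 3.99 and 2.36 for KO. The KO values lay within the WT range, and the log2 difference of 0.31 ± 0.47 had an adjusted p of 0.992. It was 0.02 ± 0.31 in the 75 bp libraries, and turned to -0.22 ± 0.34 without WT replicate 3. Leaving out WT replicate 1 instead raised it to 0.64 ± 0.51.

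Lhx6 and Lhx8 direct the interneurons and cholinergic neurons that arise in the ventral forebrain, and Lhx8 is also needed in the oocyte. Lhx6 (ENSMUSG00000026890.19, chr2:36081953-36105408, minus strand) was covered over 75.2%, 89.995% and 16.2% of its locus in WT and over 83.4%, 77.2% and 33.6% for KO. The genotypes overlapped and the 50 bp libraries were lowest. The highest coverage at the locus was 25 fragments in KO replicate 1, 20 in KO replicate 3, 16 and 15 in WT replicates 1 and 2, 12 in KO replicate 2 and 7 in WT replicate 3. The summits of a peak in WT replicates 1 and 2 and KO replicate 2, with coverage of 14, 15 and 12 fragments, lay within 68 bp of each other, at -1176 bp from the principal TSS. The 150 bases around them are shown with CpG in capitals as an example of a summit shared by 3 libraries.
Lhx6 upstream summit (chr2:36106372-36106521, minus strand, GRCm38): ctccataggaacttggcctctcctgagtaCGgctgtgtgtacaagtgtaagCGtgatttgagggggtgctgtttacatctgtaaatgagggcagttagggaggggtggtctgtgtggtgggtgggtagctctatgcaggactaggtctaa
This stretch held 2 CpG. Taking the first and the last base at the highest coverage of each peak, such bases lay within 100 bp of each other in 3 libraries at Lhx2, Lhx4, Lhx6, Lhx8 and Lhx9, and in at most 2 at the other 5 members.

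The centred signal at Lhx6 was 4.10, 3.72 and 2.96 for WT and 3.68, 3.17 and 2.68 for KO. The highest value was WT replicate 1 and the lowest KO replicate 3, and the genotypes overlapped. The log2 difference was -0.18 ± 0.32 over 6 libraries and -0.18 ± 0.32 in the 75 bp libraries, with adjusted p of 0.992 and 0.999 (limma). KO was the lower in each same-numbered pair, and no other of the 6 members fitted had the same sign in every pair. With the libraries paired by number the adjusted p was 0.917 (limma). At Lhx8 (ENSMUSG00000096225.7, chr3:154306294-154330659, minus strand) peaks covered 53.7%, 28.8% and 5.23% of the locus in WT and 54.0%, 41.0% and 23.3% for KO. The 3′ part was free of peaks, amounting to 46.0% of the locus. In WT replicate 3 the only peak lay from -4556 to -3021 bp, inside the promoter window but away from the start. The centred signal was 2.42, 1.25 and 0.832 for WT and 2.10, 1.55 and 1.72 for KO. The log2 difference of 0.39 ± 0.41 was the largest among the 6 members fitted over 6 libraries, did not pass the test (adjusted p of 0.992), and was 0.07 ± 0.42 in the 75 bp libraries. It was 0.04 ± 0.37 without WT replicate 3 and 0.81 ± 0.39 without WT replicate 1, where KO lay above WT without overlap, as signals did in either direction at 16.5% of the 739 regions then fitted.

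Isl1 and Isl2 form the last pair. Isl1 is a marker of motor neurons, pancreatic islets and cardiac progenitors, and Isl2 of motor neurons and retinal ganglion cells. Isl1 (ENSMUSG00000042258.13, chr13:116298281-116309689, minus strand) had the most CpG-rich promoter among the 9 members with an entry and the lowest mean signal per covered base. Peaks covered 34.9%, 22.5% and 0% of its locus in WT and 58.7%, 37.9% and 30.8% for KO. The KO libraries were the higher ones within the 75 bp reads, but WT replicate 1 lay above KO replicate 3 and the groups overlapped. Within same-numbered pairs of libraries the cover was higher in KO by 23.8, 15.4 and 30.8 percentage points at Isl1. Lhx1, Lhx8 and Lhx9 were also higher in KO in 3 of 3 pairs, and 0 members were lower in 3 of 3. Of the 3847 protein-coding genes with a peak in any library, 12.2% were higher in KO in 3 of 3 pairs. A gene could be so only with a peak in each KO library, and 1954 protein-coding genes had one in KO replicate 3. Every member had a peak in each KO library. The 12.2% is therefore lower than a matched share would be, and it does not set the members apart. The pairs numbered 3 contain WT replicate 3, and at Lhx8 the first pair differed by 0.327 points, so these signs are given as a description and without a test. Where each of the other 9 genes had a merged region called in 5 or 6 libraries, Isl1 broke into 3 regions, called in 4, 4 and 3 libraries.

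The principal TSS of Isl1 lay under no peak in the WT libraries and under a peak in KO replicates 1 and 3. In KO replicate 1 that peak ran from -5937 to 1392 bp around the TSS with a highest coverage of 9 fragments, and in KO replicate 3 from -3360 to 1697 bp with 15 fragments. The WT peaks lay from 2204 to 7927 bp in replicate 1, and from -6117 to -3854 and from 2621 to 5157 bp in replicate 2. KO replicate 2, like WT replicate 1, had peaks only downstream of the start, from 3153 to 7475 and from 9517 to 13785 bp. The start thus lay under no peak in 4 of the 6 libraries, and the KO libraries were split. In the middle region inside the gene, the signal was 0.897 and 0.456 times the median region in the 75 bp libraries of WT and 0.489 and 0.804 times in the KO ones, a log2 difference of -0.03 ± 0.44 with an adjusted p of 0.999. A second region, chr13:116293079-116300172, lies across the 3′ end of the gene and was also called in the 4 libraries of 75 bp reads, the WT peaks in it lying wholly past that end. It counted for Isl1 only because the KO peaks in it reached into the gene, so KO above WT was partly built in. Its signal was 0.432 and 0.382 times the median region for WT and 0.898 and 0.554 times for KO, so that KO lay above WT without overlap. Signals separated in either direction at 31.7% of all 2557 regions. The log2 difference in this second region was 0.80 ± 0.36, with a 95% interval of -0.046 to 1.64. The unadjusted p was 0.0606 and the adjusted p 0.996 in limma. Its covered width was 2054 and 3688 bp for WT and 5633 and 4269 bp for KO, again without overlap, a log2 difference of 0.83 ± 0.41 with an adjusted p of 0.996. The region over the start itself was called in 3 libraries and was not part of the 75 bp fit.

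Isl2 (ENSMUSG00000032318.12, chr9:55538672-55546180, plus strand) had a peak in all 6 libraries, and its principal TSS was covered in WT replicate 2 and in KO replicates 1 and 3. Peaks covered 52.6%, 72.7% and 25.7% of the locus in WT and 70.7%, 54.7% and 64.2% for KO. WT replicate 3 was the lowest and the genotypes overlapped. Its centred signal was 1.08, 1.79 and 2.69 for WT and 1.87, 0.936 and 2.45 for KO. Replicate 3 was the highest of each genotype, which held for no other of the 6 members, and the groups overlapped, with a log2 difference of -0.09 ± 0.45 and an adjusted p of 0.992, and of -0.05 ± 0.45 in the 75 bp libraries. The direction turned to 0.24 ± 0.46 without WT replicate 3, to 0.32 ± 0.46 without KO replicate 2 and to 0.71 ± 0.57 when signal was scaled by mapped reads, which moved the median of all regions to 0.78. The merged region held the antisense transcript Gm17226 and 801 bp of Scaper at its far end.

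To set the genes side by side on a scale per length, the mean signal per covered base was divided by that of the median peak in the same library. Its median over libraries fell from 1.23 at Lhx3 through 1.20 at Lhx6, 1.19 at Lhx2, 1.16 at Lhx9, 1.15 at Isl2, 1.15 at Lhx4, 1.11 at Lhx1, 1.07 at Lhx8 and 1.05 at Lhx5 to 0.853 at Isl1. Neighbours in this order overlapped between libraries, Lhx3 alone ranging from 0.706 in WT replicate 3 to 1.43 in WT replicate 2. Isl1 ranged from 0.744 to 0.976 and was the lowest member in each of the 5 libraries in which it had a peak. Lhx3 was the highest in WT replicates 1 and 2 and in KO replicate 1. Without WT replicate 3 the median was again highest at Lhx3 and lowest at Isl1, and Isl2 moved from the fifth place to the seventh at 1.08. Over all protein-coding genes with a peak, the median was 1.002 to 1.06 in the 6 libraries.

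**Figure D3:**
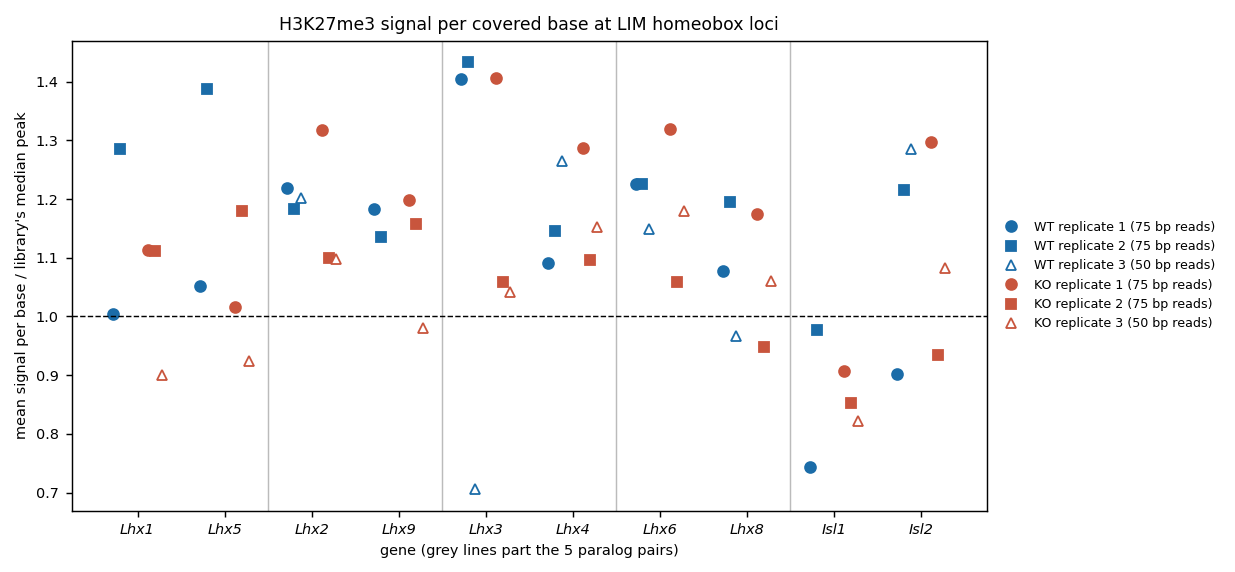
Mean H3K27me3 signal per covered base at each gene, divided by that of the median peak of the same library (y axis, dashed line at the median peak), 1 point per library. Isl1 lies below the line in the 5 libraries in which it has a peak, while Lhx2, Lhx4 and Lhx6 lie above it in all 6.

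No member passed the test of signal between genotypes. Over the 717 regions called in all 6 libraries, 0 passed an adjusted p of 0.05 in limma, 8 (1.12%) had an unadjusted p under 0.05 and 48 (6.69%) had WT and KO signals that did not overlap. Of the 6 members among these regions, 0 had signals that did not overlap. Pairing the libraries by replicate number raised the unadjusted count to 25 (3.49%) with no adjusted call. The limits of the 95% intervals of the 6 members ran from -1.09 to 1.34 on the log2 scale. In the 75 bp libraries, where all 10 members had a region, 0 of 2557 regions passed the adjusted test and 119 (4.65%) had an unadjusted p under 0.05. For width the unadjusted count there was 100 (3.91%). With 1 region per gene (for Isl1 that with the larger summed signal), the signal differences lay between -0.27 at Lhx5 and 0.14 at Lhx9. The second Isl1 region, which counted for the gene only through its KO peaks, stood outside this range at 0.80. Without WT replicate 3, 1621 regions were called in the other 5 libraries, 0 passed the adjusted test, 55 (3.39%) had an unadjusted p under 0.05 and 336 (20.7%) had signals that did not overlap. The 9 members among them ranged from -0.46 at Lhx3 to 0.36 at Lhx9, with adjusted p of 0.943 or more in limma. KO lay wholly below WT at Lhx5 and Lhx6.

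No member passed the test of covered width either. The log2 difference KO minus WT in width at the 6 members was 0.30 (Lhx6) to 0.87 (Lhx8), with SEs of 0.80 to 0.88 and an adjusted p of 0.997 in limma, and the median over all 717 regions was 0.41. Of the 717 regions, 0 passed the adjusted test or an unadjusted p under 0.05, and 20 (2.79%) had widths that did not overlap, none of them at a member. With the libraries paired by number, 22 regions (3.07%) had an unadjusted p under 0.05 and 0 an adjusted one. Without WT replicate 3, the differences at these 6 members were -0.55 (Lhx4) to -0.11 (Isl2), and the median over the 1621 regions then fitted was -0.24. Of those regions 13 (0.802%) had an unadjusted p under 0.05, 0 an adjusted one, and 230 (14.2%) had widths that did not overlap, Lhx9 among them with KO above WT. In the 75 bp libraries the widths differed by -0.13 (middle region of Isl1) to 0.23 (Lhx8), and by 0.83 at the second Isl1 region. KO exceeded WT without overlap there at Lhx1, Lhx9 and the second Isl1 region, a separation seen in either direction at 31.6% of regions. The second Isl1 region counted for the gene only through its KO peaks.

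**Figure D4:**
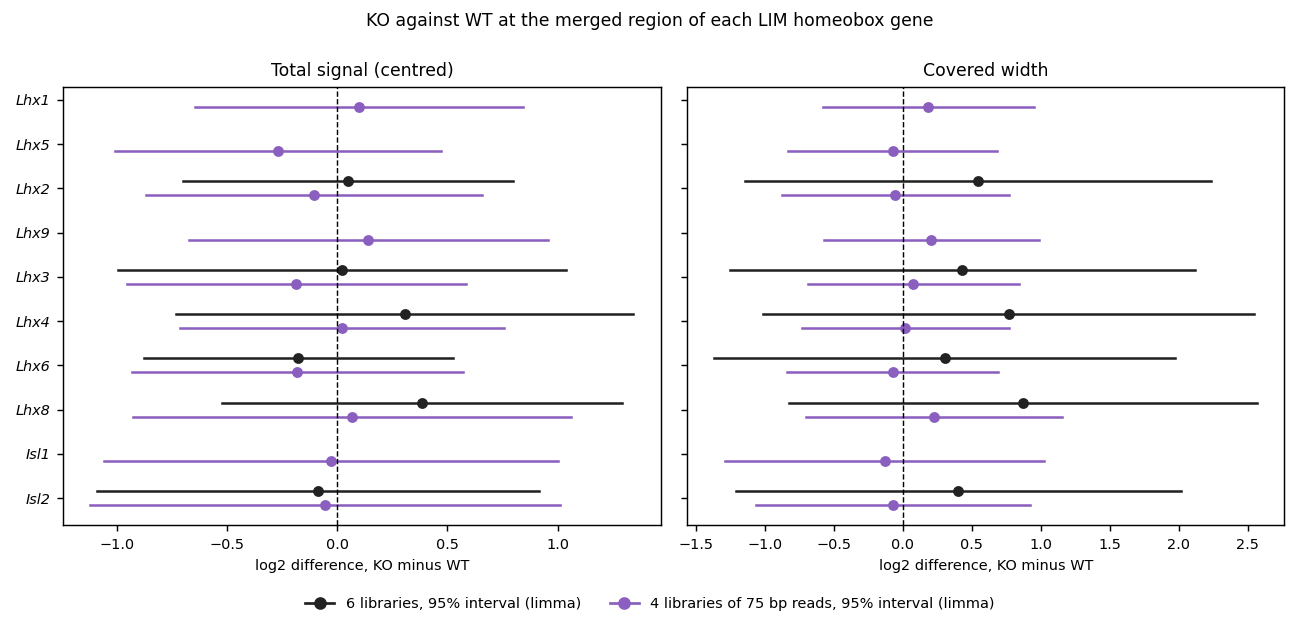
Log2 difference KO minus WT in centred total signal (left) and covered width (right) at the merged region of each gene, with limma's 95% interval, for 6 libraries (black, 6 genes) and for the 4 libraries of 75 bp reads (purple, 10 genes, the middle region for Isl1). Every interval crosses 0, and the width differences of the 6-library fit lie at 0.30 to 0.87, whereas those plotted for the 75 bp libraries lie around 0.

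When a gene was counted for a genotype only if each of its 3 libraries had a promoter peak, the members split. Lhx2, Lhx3, Lhx6, Lhx8 and Isl2 were counted in both genotypes. Lhx1, Lhx4, Lhx5, Lhx9 and Isl1 were counted in KO and not in WT, and 0 members the other way. Among all protein-coding genes 4.48% were counted in KO and not in WT, and 0.36% the other way, out of 7.12% counted in KO and 3.01% in WT. Each of these 5 members lacked a promoter peak only in WT replicate 3, and without that library all 10 were counted in both genotypes. With the same number of top peaks taken from every library, 1047, the members with a promoter peak numbered 9, 8 and 5 in WT replicates 1 to 3 and 9, 6 and 10 in KO replicates 1 to 3. The share of all protein-coding genes was then 3.93%, 3.81% and 3.46% in WT replicates 1 to 3 and 4.32%, 3.93% and 4.16% in KO replicates 1 to 3.

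The remaining LIM homeobox genes, Lmx1a and Lmx1b, which pattern midbrain dopamine neurons and the limb, had a promoter peak in all 6 libraries. Of 10 genes for partners of LIM proteins, 8 lacked a promoter peak in every library, near the 84.2% of all protein-coding genes without one. The 8 included Ldb1, which encodes the cofactor that joins LIM factors into complexes, and Lmo2, which acts with it in blood progenitors. Those with a peak were Lmo3, marked in WT replicate 2 and KO replicates 1 and 2, and Lmo1, marked in KO replicate 1. Of 4 genes that the ISL1 and LHX3 complex activates in motor neurons, Mnx1 and Chat were marked in all 6 libraries. The vesicular acetylcholine transporter gene Slc18a3, which lies within the first part of Chat, was marked in 5, and the choline transporter gene Slc5a7 in WT replicate 2 and KO replicate 2.

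Other homeobox and paired-box families also carried the mark. A promoter peak was found for 8, 7 and 4 of 10 Nkx2 and Nkx6 genes in WT replicates 1 to 3 and for 7, 8 and 8 in KO replicates 1 to 3. It was found for 8, 9 and 5 of 9 Pax genes in WT and 9, 9 and 8 for KO, and for 5, 6 and 1 of 6 Dlx genes in WT and 5, 5 and 6 for KO. WT replicate 3 had the lowest count in each of these lists, as it had for the LIM homeobox genes. The median share of the locus under peaks was 25.5%, 43.8% and 1.32% for Pax genes in WT replicates 1 to 3 and 35.0%, 31.8% and 7.70% in KO replicates 1 to 3. For the LIM homeobox genes it was 59.6%, 71.7% and 4.14% in WT and 68.7%, 54.3% and 43.6% for KO, above the Pax median in each library. The Dlx median was 71.6%, 82.7% and 0% in WT and 81.9%, 64.5% and 59.9% for KO. It exceeded the LIM homeobox median in every library but WT replicate 3. The Nkx2 and Nkx6 median was 66.3%, 70.0% and 8.81% in WT and 82.1%, 52.7% and 43.9% for KO. It exceeded the LIM homeobox median except in WT replicate 2 and KO replicate 2. These medians are a description without a test. Outside these lists, the 3 genes whose centred signal over the 6 libraries was nearest to the median of the 6 members called in all of them were Dmbx1, Gsx2 and Gata4, at Euclidean distances of 0.498, 0.545 and 0.616 on the log2 scale. Dmbx1 and Gsx2 are homeobox genes of the brain, and Gata4 is a regulator of heart and endoderm.

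**Figure D5:**
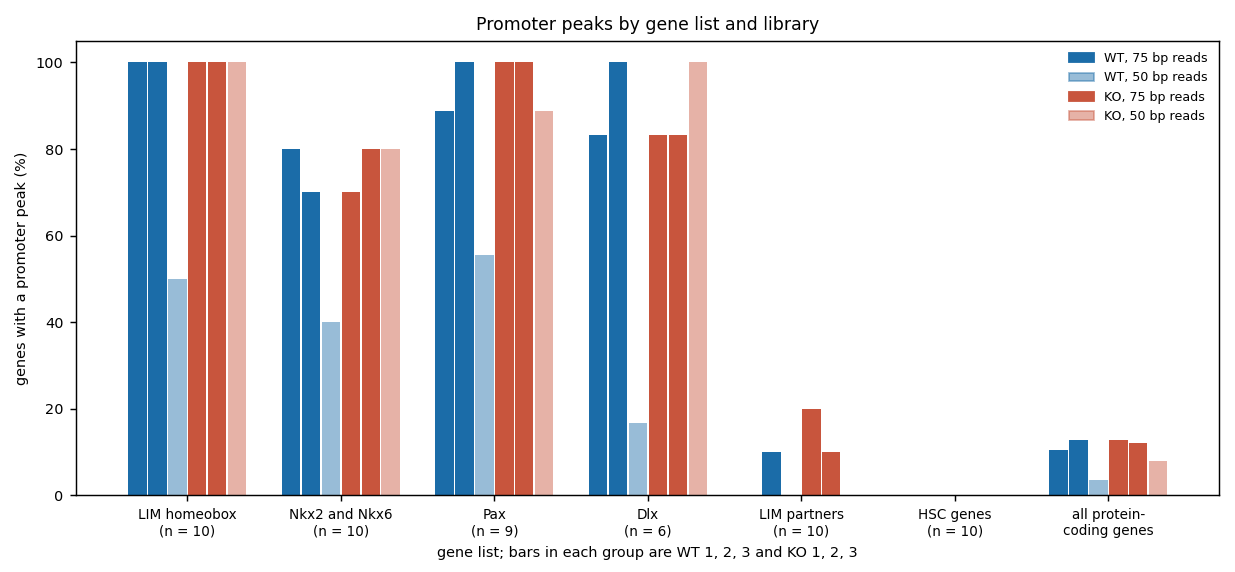
Share of genes with an H3K27me3 promoter peak (y axis, %) in 6 gene lists and in all protein-coding genes, with 1 bar per library in the order WT 1, 2, 3 and KO 1, 2, 3 and paler bars for 50 bp reads. The LIM homeobox bars stand at 100% except WT replicate 3 at 50%, the HSC genes have none, and all protein-coding genes lie between 3.46% and 12.9%.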

How the data were processed

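H3K27me3 CUT&Tag was analysed in 3 WT and 3 IκBα KO libraries of E14.5 fetal liver LT-HSCs, and the series' 4 IκBα CUT&Tag samples were left out. Labels gave the groups and replicate numbers. The authors trimmed reads (Trim Galore 0.6.6), aligned them to GRCm38 (Bowtie2 2.4.4), removed duplicates, multi-mapped reads and low-quality alignments, and called the peaks of every library separately with SEACR 1.3 (stringent, no IgG, top 0.5%), and the file names state a blacklist filter. The deposited total and maximum signal of each peak are sums and highest values of fragment coverage without scaling to depth. The peak files hold no read totals. Totals that the study lists were used in 1 scaling alternative only, and peak number and coverage are not measures of depth alone.

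Peaks were assigned to GENCODE M21 promoters and bodies by an overlap of at least 1 bp. The principal TSS is that of the APPRIS principal transcript. Peaks of the 6 libraries were merged where they overlapped, and a gene with several regions in a fit (Isl1 alone) was represented by the one with the largest summed signal. For each merged region, log2 total signal centred on the median of its library, and log2 covered width, were compared with limma 3.58.1 (R 4.3.3) over all regions, with genotype as the only term and Benjamini-Hochberg adjustment at 0.05. The fit was tested on simulated data. Same-numbered WT and KO libraries deviated together over the 717 regions (r of 0.27, 0.31 and 0.47), so the numbers were taken to pair the libraries and a fit with that block was added. Differently numbered libraries of 75 bp reads also correlated (0.27 for WT replicate 2 with KO replicate 1, 0.098 for WT replicate 1 with KO replicate 2), and pairs of different read length were negative (-0.44 to -0.27), so the number and the read length cannot be told apart. The alternatives were other scalings, signal measures, peak thresholds and promoter windows, the 75 bp libraries alone and leaving out each library. The named genes were the 10 members in 5 paralog pairs and lists of partners, targets, related families and cell type markers. The 3 most alike genes were chosen by the smallest distance to the members' median. Members and lists were chosen with earlier results of these data known. Promoter sequences are from RefSeq (GRCm38.p6).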

Additional observations from a re-analysis of the deposited data

How the results depend on the processing

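The count of regions with an adjusted p under 0.05 was 0 for signal and for width under each alternative run. The promoter counts did change. The members counted in each WT library rose from 5 to 10 in the 75 bp libraries alone and with 2 of 3 libraries required. They fell to 3 with an overlap of 500 bp, to 2 with the principal TSS promoter only and to 1 with a peak over the principal TSS base (the last 2 chosen after seeing the data). They ranged from 5 to 10 when each library was left out, 10 being without WT replicate 3. With the same number of top peaks, 6 members were counted in KO and 2, Isl2 and Lhx3, in WT and not KO. Those counted in KO and not WT fell to 0 in the 75 bp libraries and with 2 of 3 libraries, and ranged from 0 to 5 in the leave-one-out fits. They were 7 with an overlap of 500 bp and with either use of the principal TSS, 6 with peaks above the library median and with 1 kb around a TSS, and 4 with the same number of top peaks and with bodies counted. Of the 152 single values under an alternative, 37 changed sign, none of them called, and the cause was not tested. In the 75 bp libraries the signal difference was -0.11 at Lhx2 and -0.19 at Lhx3, and the width difference -0.054 at Lhx2, -0.074 at Lhx6 and -0.072 at Isl2. By mean signal per base it was -0.069 at Lhx2, -0.033 at Lhx4 and -0.055 at Lhx8. By maximum signal it was 0.28 at Lhx6, -0.15 at Lhx8 and 0.22 at Isl2. With peaks above the library median it was -0.018 at Lhx2, -0.15 at Lhx3, -0.078 at Lhx4 and 0.021 at Lhx6. Scaling by summed signal, which moved the median of all regions to -0.26, gave -0.19 at Lhx2 and -0.22 at Lhx3. Scaling by mapped reads moved that median to 0.78 and gave 0.63 at Lhx6, 0.71 at Isl2, 0.83 at Lhx3, 0.85 at Lhx2, 1.11 at Lhx4 and 1.19 at Lhx8, with adjusted p of 0.345 to 0.430 (limma). With centred widths it was -0.11 at Lhx6 and -0.014 at Isl2, and with regions of 3 or more libraries, uncalled ones set to the smallest called signal, the signal difference was 0.18 at Lhx5, 0.77 at Lhx9, 0.63 at Lhx1 and -0.29 at the middle Isl1 region, with adjusted p of 0.997 (limma), against -0.27, 0.14, 0.10 and -0.03 in the 75 bp libraries. The Isl1 region across the 3′ end was then 0.26, against 0.80, and that over the start 0.72, both with adjusted p of 0.997 (limma). Leaving out each library, signal ranged from -0.19 to 0.17 at Lhx2, -0.46 to 0.32 at Lhx3, -0.22 to 0.64 at Lhx4, -0.42 to 0.32 at Isl2, -0.30 to -0.04 at Lhx6 and 0.04 to 0.81 at Lhx8. Without WT replicate 1, KO lay above WT without overlap at Lhx8 (0.81, adjusted p of 0.961 in limma), against 16.5% of regions in either direction. Width then ranged from -0.43 to 1.12 at Lhx2, -0.46 to 0.97 at Lhx3, -0.55 to 1.43 at Lhx4, -0.53 to 0.77 at Lhx6, -0.14 to 1.56 at Lhx8 and -0.11 to 0.82 at Isl2, and was -0.056 at Lhx1 without WT replicate 3. The replicate block changed no adjusted call. A typical peak rested on 6 to 10 fragments at its highest point, which limits every value here.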
